A study of Mus musculus with 6 samples.

Results

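The zinc finger genes Zfp600 to Zfp999 are mouse genes named only by a number, since most were found by sequence rather than by function. They were taken as the genes whose symbol in the platform annotation is Zfp followed by a number in this range with an optional letter, given alone for a probe set (a group of array probes read out as 1 value). This gave 141 genes with 254 probe sets, of 18193 genes with 1 symbol on the array, and each gene was represented by its probe set with the highest mean over the 6 arrays. RNA came from the thymus of adult female F1 mice. The AKR cross, (AKR/J x FVB/NJ)F1, has 3 arrays, and so does the DBA cross, (DBA/2J x FVB/NJ)F1. All animals carry 1 FVB/NJ genome, so the crosses differ in the copy inherited from the other parent. The comparison asks how basal thymus expression differs between these genotypes. Exact ages, and whether the arrays came from separate animals, are not given in the sources used here, so a p-value here speaks only of the variation among arrays, in part perhaps technical.

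Many proteins of this family pair an array of C2H2 zinc fingers, each of which reads a few bases of DNA, with a KRAB domain. The KRAB domain binds TRIM28, which brings in SETDB1 and other enzymes that methylate histones and DNA and silence the bound site. Many KRAB zinc finger proteins bind endogenous retroviruses and other transposable elements. Their genes lie in chromosomal clusters that grew by duplication and that differ between species and between mouse strains.

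The deposited values were log2 values with array medians from 5.92 to 5.95. Array correlations over all probe sets ran from 0.994 to 0.996 within a cross and from 0.984 to 0.989 between crosses. Of 14 thymocyte markers, 12 were measured, with a mean log2 level of 11.82 to 11.96 on the AKR arrays and 11.80 to 11.82 on the DBA arrays, and 1 of them (Cd3e) was higher in the AKR cross. Of 5 B cell markers, 4 were measured, at a mean of 8.11 to 8.24 on the AKR arrays and 7.67 to 7.84 on the DBA arrays, and 3 of them were higher in the AKR cross. Skeletal muscle markers varied most between arrays, from 6.80 to 8.39 on the AKR arrays and from 7.13 to 10.66 on the DBA arrays, with 0 of 3 called. Of 3 measured myeloid markers, Lyz2 was called in the AKR direction. Of 3 fibroblast markers, Pdgfra was called in the DBA direction. Fat markers ran from 9.34 to 10.57 on the AKR arrays and from 10.22 to 11.03 on the DBA arrays, with 0 of 2 called. No endothelial or red cell marker was called, and thymic epithelial markers are given below. Over all genes tested, 24.0% were called. The part of these cell types in the differences below was not tested. In whole tissue, fewer cells of a type and less RNA per cell cannot be told apart.

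These zinc finger genes were called about as often as all genes, and most of their calls lay on the side of the DBA cross. Of the 141 genes, 109 passed a filter on dim values (above the 40th percentile of the array on at least 3 of 6 arrays) and 32 did not. By limma with Benjamini-Hochberg adjustment over all 12855 genes tested, 27 of the 109 were called at an adjusted p under 0.05. That was 24.8% of them, and the share over all genes tested was 24.0%. The 27 split into 6 genes higher in the AKR cross (5.50%, against 12.5% of all genes) and 21 higher in the DBA cross (19.3%, against 11.5% of all genes). Differences of at least 2-fold, which 0.918% of all genes showed in either direction, were found for 0 genes in the AKR direction, where 0.218% of all genes had one, and for 5 in the DBA direction (Zfp626, Zfp982, Zfp946, Zfp955b and Zfp935), where the share over all genes was 0.700%. Of these 5, Zfp626, Zfp982 and Zfp935 passed the filter only through the DBA arrays, so nothing is read from this count. Among the 82 tested genes that were not called, 40 had the higher mean on the AKR side and 42 on the DBA side. The median difference of the 109 genes was -0.07 (log2, AKR cross minus DBA cross) and that of all genes tested was 0.03, with median sizes of 0.17 for both. No set test was run, since the list was proposed with results of these data known.

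**Figure D1:**
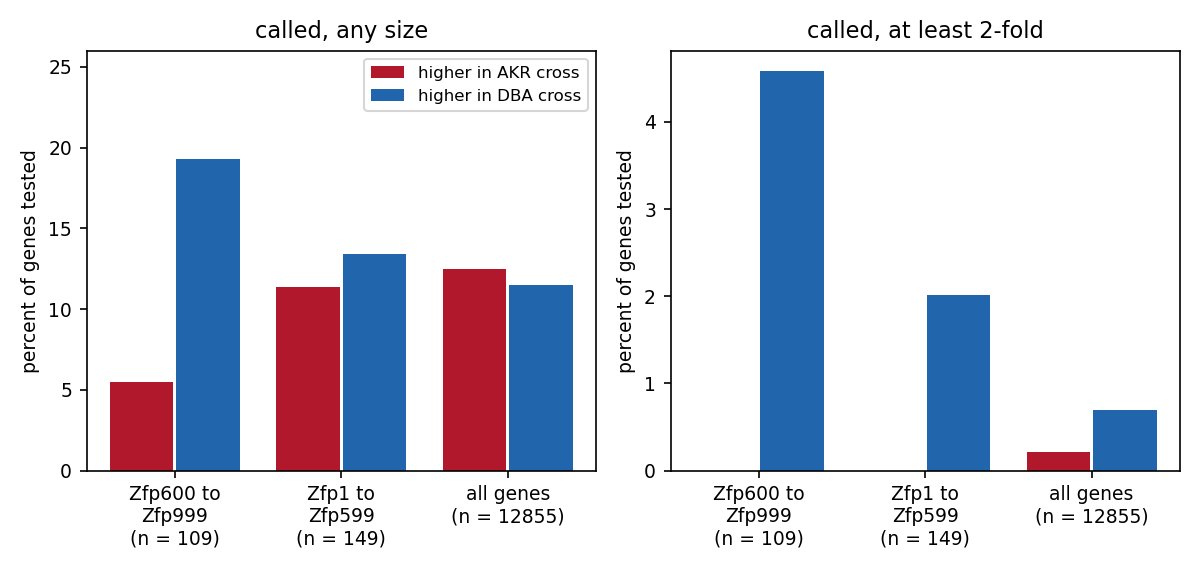
Percent of tested genes called higher in the AKR cross (red) or in the DBA cross (blue) by limma, for Zfp600 to Zfp999 (109 genes), Zfp1 to Zfp599 (149 genes) and all 12855 genes, at any size of difference (left) and at 2-fold or more (right). The blue bar of Zfp600 to Zfp999 stands at 19.3% on the left, above its red bar of 5.50%, while the bars of all genes stand at 12.5% and 11.5%. The blue bars of Zfp600 to Zfp999 include Zfp626, Zfp982 and Zfp935, which passed the filter only through the DBA arrays.

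In the 16 alternative settings, 67.9% to 89.5% of the called zinc finger genes were higher in the DBA cross. These settings reuse the same arrays and the same list, so this is no independent support for the split. Over all genes, 45.4% to 62.1% of those called in these settings were higher in the AKR cross. The number of zinc finger genes called depended on single arrays. It was 15 when AKR replicate 2 or DBA replicate 3 was left out, and 17 when DBA replicate 1 or 2 was. Genes higher in the DBA cross numbered 12 without AKR replicate 2 and 13 without DBA replicate 1 or 3, while AKR-higher genes numbered 2 when AKR replicate 1 or either of DBA replicates 2 and 3 was removed, 3 without AKR replicate 2 or 3, and 4 without DBA replicate 1. The genes Zfp1 to Zfp599, named by the same scheme, had 37 of 149 called (24.8%), 17 in the AKR direction and 20 in the DBA direction, so their calls were more evenly divided in number, with a median difference of 0.03; this contrast between the lists was not tested.

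Zfp626 had the largest difference among the called genes. Its log2 values were 4.67, 4.52 and 5.38 on the AKR arrays, against 6.79, 6.51 and 6.78 on the DBA arrays. The highest AKR array lay more than 1 log2 unit below the lowest DBA array, and 2 of the 3 AKR arrays did not reach the 40th percentile, which makes the 3.58-fold difference (-1.84 ± 0.20, SE, adjusted p = 0.000663, limma) inexact. The other probe set of Zfp626 was below that percentile on all 6 arrays and was not tested. It read 4.16, 4.33 and 4.04 on the AKR arrays, against 4.54, 4.40 and 4.46 on the DBA arrays, a much smaller gap. Zfp982 stood at 4.74, 5.22 and 4.39 on the AKR arrays, all below that percentile, against 6.04, 6.46 and 6.25 on the DBA arrays (-1.47 ± 0.20, adjusted p = 0.00151, limma). Zfp935 followed the same form, with 5.36, 4.68 and 4.96 on the AKR arrays and 6.10, 6.32 and 6.0 on the DBA arrays (-1.14 ± 0.17, adjusted p = 0.00217, limma), and 2 AKR arrays were below the percentile. Zfp982 was also called on a probe set that can match several transcripts, and without such probe sets its difference was -0.31 (adjusted p = 0.0872, limma) and not called. A probe set shared by Zfp982 and Gm13212 read 0.23 ± 0.09, of the other sign, and was not called. The sizes for Zfp982 and Zfp935 are inexact too, since few or none of their AKR arrays were above the percentile.

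Among genes above the percentile on all 6 arrays, Zfp946 and Zfp955b differed most. Zfp946 stood at 8.18, 7.90 and 7.66 on the AKR arrays, against 9.20, 9.14 and 9.01 on the DBA arrays, which was 2.31-fold lower in the AKR cross (-1.21 ± 0.13, adjusted p = 0.000457, limma). Zfp955b was at 7.83, 7.22 and 7.73 on the AKR arrays, against 8.77, 8.60 and 8.93 on the DBA arrays, or 2.25-fold lower in the AKR cross (-1.17 ± 0.16, adjusted p = 0.00146, limma). For both genes every AKR array lay below every DBA array. Zfp949 was 1.89-fold lower in the AKR cross, with 8.21, 8.09 and 8.55 on the AKR arrays and 9.29, 9.09 and 9.22 on the DBA arrays, and its other probe set was called the same way (-0.84 ± 0.11). Zfp729a was 1.80-fold lower, with 7.69, 7.51 and 7.56 on the AKR arrays and 8.47, 8.27 and 8.56 on the DBA arrays. The groups did not overlap for either.

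The other genes called in the DBA direction differed by less. Zfp800, known in the mouse from development of the endocrine pancreas, stood at 7.33, 7.43 and 7.43 on the AKR arrays, against 8.0, 8.03 and 8.20 on the DBA arrays (-0.68 ± 0.09). Zfp932, a KRAB zinc finger gene whose product restrains endogenous retroviruses in mouse embryonic stem cells, was at 8.25, 8.13 and 8.31 on the AKR arrays, against 8.88, 8.67 and 8.89 on the DBA arrays, lower in the AKR cross without overlap (-0.58 ± 0.09, adjusted p = 0.00268, limma). Zfp983 (-0.61 ± 0.19), Zfp617 (-0.57 ± 0.13), Zfp942 (-0.51 ± 0.08), Zfp825 (-0.49 ± 0.12) and Zfp729b (-0.45 ± 0.09) were next in size. These values depended on the probe sets taken: with the mean of all probe sets Zfp942 was at -0.02 and Zfp983 at -0.24, and without probe sets that can match several transcripts Zfp617 was at -0.03 and Zfp825 at -0.20, all without a call. Zfp729b kept its call in all 16 alternative settings. Zfp770 (-0.43), Zfp654 (-0.39), Zfp788 (-0.39), Zfp958 (-0.33) and Zfp760 (-0.30) followed, all called with non-overlapping groups. Zfp770 lost its call in 6 alternative settings, Zfp654 and Zfp958 in 4 each and Zfp788 in 3, mostly with 1 array left out. Zfp760 was close to the threshold (adjusted p = 0.0474, limma) and lost its call in 10 of 16 alternative settings, among them each array left out. Zfp638, which encodes a large nuclear protein studied in fat cell differentiation, was 1.22-fold lower in the AKR cross (-0.29 ± 0.08), and at -0.18 without a call when probe sets that can match several transcripts were left out. Zfp750, a transcription factor gene of keratinocyte differentiation, stood at 5.34, 5.69 and 5.58 on the AKR arrays, against 5.99, 5.99 and 5.77 on the DBA arrays, close to the threshold (-0.38 ± 0.12, adjusted p = 0.0493, limma), and lost its call with any array left out. Beside it, the thymic epithelial markers Epcam (-0.59) and Aire (-0.34) were called in the DBA direction and Foxn1 (0.67) in the AKR direction, 3 of 6 markers, with a mean of the list at 8.98 to 9.14 on the AKR arrays and 9.07 to 9.18 on the DBA arrays, and their part in the Zfp750 difference was not tested.

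Genes called higher in the AKR cross were fewer, and each differed by less than 1.5-fold on its brightest probe set. Zfp994 led them, with 7.35, 7.01 and 7.15 on the AKR arrays and 6.67, 6.56 and 6.57 on the DBA arrays (0.57 ± 0.11, adjusted p = 0.00654, limma). Zfp771 was at 8.77, 8.64 and 8.64 on the AKR arrays, against 8.41, 8.19 and 8.19 on the DBA arrays (0.42 ± 0.09, adjusted p = 0.0106, limma), and its other tested probe set was called the same way (0.63 ± 0.10). Zfp811 (0.39 ± 0.09), Zfp653 (0.36 ± 0.09), which encodes a transcriptional repressor, Zfp651 (0.32 ± 0.10) and Zfp950 (0.26 ± 0.08) made up the rest. Both Zfp651 and Zfp950 lost their calls with any array left out, and Zfp950 was at 0.09 with the mean of all probe sets. Zfp811 and Zfp653 lost theirs in 4 settings each, all with 1 array left out. Zfp994 and Zfp771 kept theirs in every setting that tested them. All 27 called genes had non-overlapping groups. Of the 109 tested genes 42 did, or 38.5%, and over all genes tested the share was 43.9%.

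**Figure D2:**
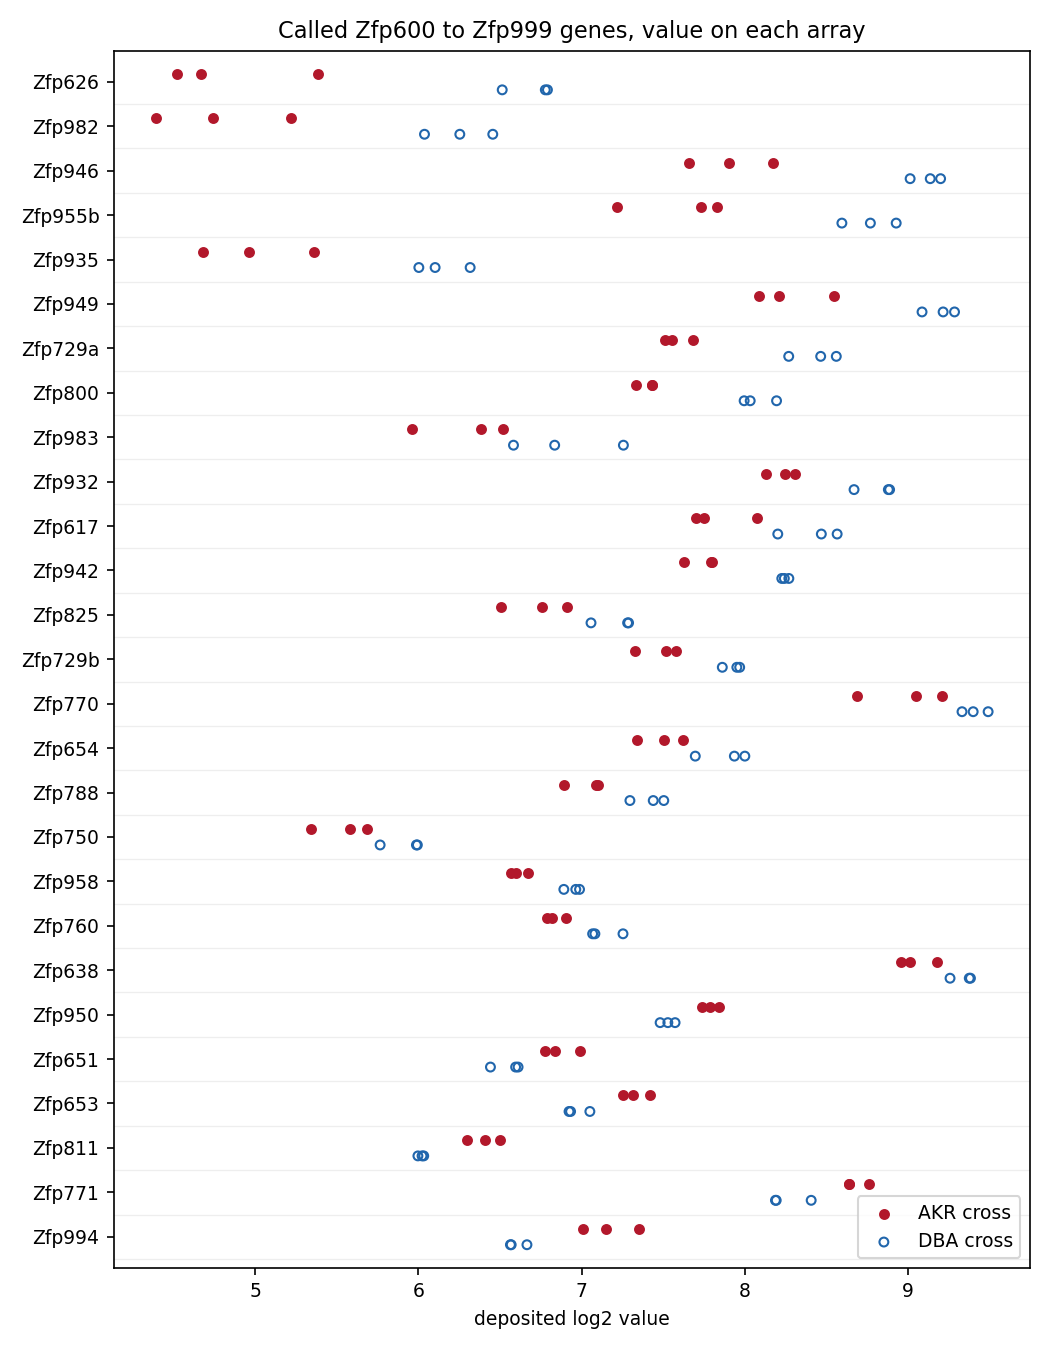
Deposited log2 value of each called gene on each array, with the 3 AKR cross arrays as filled red points above the 3 DBA cross arrays as open blue points in each row. The red points lie left of the blue points in the upper 21 rows and right of them in the lower 6 rows, and in Zfp626 the gap between the highest AKR array (5.38) and the lowest DBA array (6.51) is wider than in any row of the lower 6.

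In size of difference the called genes formed both ends of a range that ran through 0. The largest difference without a call was -0.40 ± 0.16 for Zfp869, whose AKR arrays (7.86, 7.57 and 8.29) overlapped its DBA arrays (8.36, 8.16 and 8.42). Zfp691 (0.30 ± 0.10, adjusted p = 0.0558, limma) and Zfp688 (0.32 ± 0.11, adjusted p = 0.0691, limma) were among those just outside the threshold. Of the 27 called genes, 18 differed by less than 1.5-fold.

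**Figure D3:**
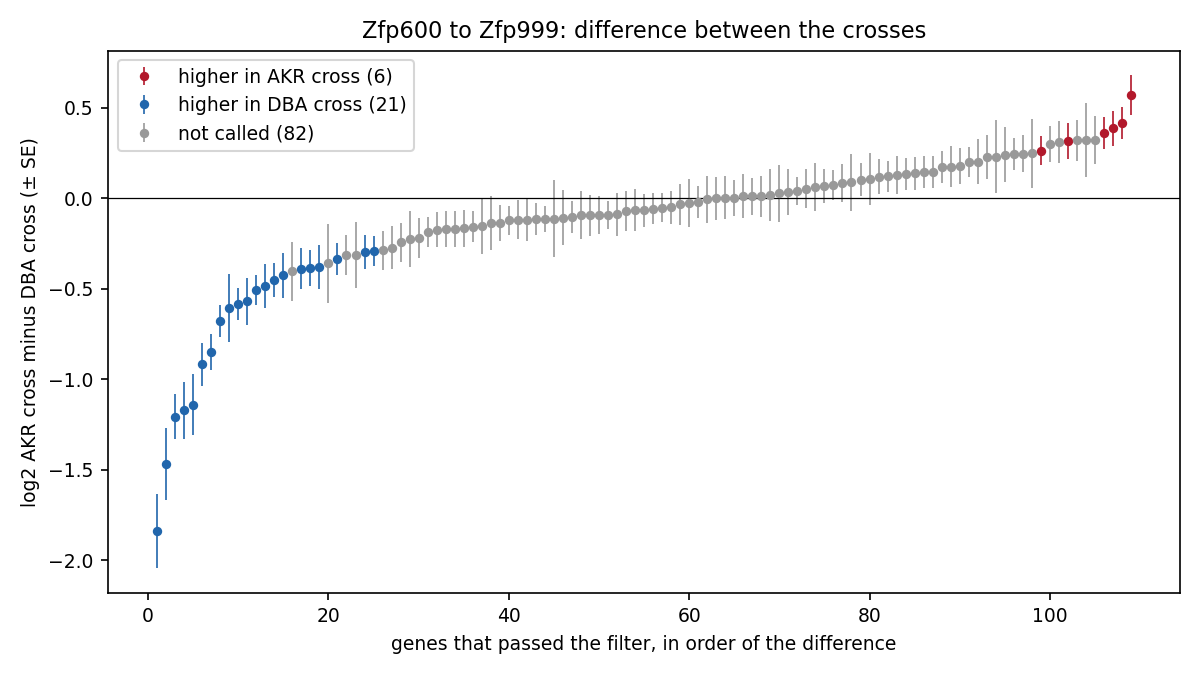
Log2 difference, AKR cross minus DBA cross, with its SE for the 109 genes that passed the filter, ordered by the difference and coloured by the limma call. Most points lie within 0.4 of 0, and the left end drops to -1.84 while the right end reaches 0.57.

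Some members with a known role in silencing retroviral sequences were looked at by name. Zfp809, a KRAB protein that binds the proline primer binding site of murine leukaemia viruses in embryonic cells, averaged 8.11 ± 0.37 in the AKR cross, against 8.22 ± 0.38 in the DBA cross (SD, n = 3 each), with a difference of -0.11 ± 0.21 (adjusted p = 0.730, limma). The spread within each cross was larger than that difference. Part of it followed the array number, with 8.53, 7.95 and 7.84 on AKR arrays 1 to 3 and 8.57, 8.26 and 7.82 on DBA arrays 1 to 3. Zfp961, related to a lysine primer binding site, averaged 7.11 ± 0.12 and 7.23 ± 0.14 in the AKR and the DBA cross (SD, n = 3 each) and was not called. Zfp708, which keeps methylation at a retroelement family in mouse embryos, and Zfp819 did not pass the filter. Of the tested genes named in this paragraph, Zfp932, described above, was called, and Zfp809 and Zfp961 were not. This is not a full list of members with such a role.

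Other members were looked at by name for a known role outside retroviral silencing. Zfp608, a repressor of the Rag recombinase genes in mouse thymocytes, averaged 5.64 ± 0.17 in the AKR cross, against 5.73 ± 0.07 in the DBA cross (SD, n = 3 each). Its difference of -0.09 ± 0.11 was within the replicate spread, and Rag1 (-0.07 ± 0.05) and Rag2 (0.14 ± 0.07) were not called either. Zfp622 (-0.11), a ribosome assembly factor gene, Zfp830 (-0.12), needed for genome stability, Zfp746 (0.07), a repressor gene studied in neurons, Zfp703 (0.01), Zfp740 (-0.16) and Zfp827 (-0.31), studied at telomeres, were not called. Zfp668, a DNA damage response gene, was 0.24 ± 0.09 higher on the AKR side with non-overlapping groups and was not called (adjusted p = 0.0731, limma). Of the 20 role genes listed, 14 were tested, with 0 called in the AKR direction (12.5% of all genes were) and 3 in the DBA direction, or 21.4% called, against 24.0% of all genes. Zfp711 did not pass the filter, Zfp609 and Zfp683 were not analysed here, and Zfp706 shares its probe sets with another gene and is in none of these counts.

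The corepressor machinery that KRAB proteins use split both ways. Of 25 measured genes of this list, 4 were called in the AKR direction, 5 in the DBA direction and 16 not at all. The called share was 36.0%, against 24.0% of all genes, and all 9 differed by less than 1.5-fold. The count fell to 5 without AKR replicate 1, AKR replicate 2 or DBA replicate 1, to 4 without either of the other 2 DBA arrays, to 6 without AKR replicate 3, and to 5 without a variance trend. Trim28, the KRAB-binding scaffold itself, averaged 11.81 ± 0.04 in the AKR cross, against 11.58 ± 0.07 in the DBA cross (SD, n = 3 each), 1.18-fold higher in the AKR cross (0.24 ± 0.05, adjusted p = 0.0123, limma). Setdb1, the histone methyltransferase it recruits, differed by 0.10 ± 0.07 and was not called. The maintenance methylation genes Uhrf1 (0.40 ± 0.07) and Dnmt1 (0.31 ± 0.07) and the histone methyltransferase gene Ehmt2 (0.24 ± 0.07) were called in the AKR direction. Tasor (-0.37 ± 0.10), of the HUSH silencing complex, Chd4 (-0.34 ± 0.09) and Hdac2 (-0.24 ± 0.06), of the NuRD complex, Morc3 (-0.29 ± 0.07) and Atrx (-0.22 ± 0.06), a chromatin remodeller gene, were higher in the DBA cross. Trim28, Dnmt1, Chd4, Hdac2 and Morc3 were read on probe sets that can match several transcripts. Only the brightest tested probe set of each gene is given here. The mean level of the list was 9.43 to 9.46 on the AKR arrays and 9.43 to 9.47 on the DBA arrays, so the list as a whole stood at about the same level in both crosses.

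The genes were next set in chromosome order, with RefSeq positions on GRCm38.p6. All 141 were found in it, on 19 chromosomes. Neighbours with starts at most 500 kb apart formed 24 runs of 2 to 13 genes with 96 genes in all, and 45 genes stood alone. Only genes of this number range were counted, so a gene alone here may still lie beside other zinc finger genes. Of the tested genes in runs, 16 of 75 were called (21.3%), 4 in the AKR direction and 12 in the DBA direction. Of those alone, 11 of 34 were called (32.4%), 2 and 9 in these directions. The share over all genes, 24.0%, lay between both, and the difference between them was not tested. In 14 of the 24 runs no gene was called, in 6 all called genes were higher in the DBA cross, in 2 all lay in the AKR direction, and in 2, both on chromosome 17, calls went both ways.

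The run of 13 genes on chromosome 17 showed neighbours that differed in opposite directions. Zfp983, Zfp760, Zfp942 and Zfp946 were lower in the AKR cross, Zfp994, which lies between Zfp942 and Zfp946, was higher, and 7 tested genes of the run were not called. Zfp944 and Zfp758, placed directly between Zfp994 and Zfp946, differed by 0.14 ± 0.09 and -0.01 ± 0.13. The other run on this chromosome held Zfp811 (0.39) and Zfp955b (-1.17), with 5 tested genes not called. On chromosome 13, the adjacent genes Zfp729b and Zfp729a were both lower in the AKR cross, and the 5 other tested genes of that run were not called, among them Zfp759 (-0.22 ± 0.11) and Zfp748 (-0.15 ± 0.15). Within that run, the lower-numbered zinc finger genes Zfp458 (-1.21 ± 0.14) and Zfp429 (-0.56 ± 0.18), named after their values were seen, were called lower in the AKR cross, and the 5 other tested genes there that are no members were not called. Both passed the filter only through the DBA arrays, with 2 and 3 AKR arrays below the percentile, so their sizes are inexact. Called genes that are no members lay in other runs too, in both directions. In the run of 13 genes, Zfp53 (-0.80) was lower in the AKR cross. Higher in the AKR cross were 5 of 6 such tested genes in the run of Zfp653 and 3 of 5 in that of Zfp628. In the run of Zfp771 it was 6 of 18, with 1 in the DBA direction. Over all genes tested, 12.5% were called in the AKR direction and 11.5% in the DBA direction.

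**Figure D4:**
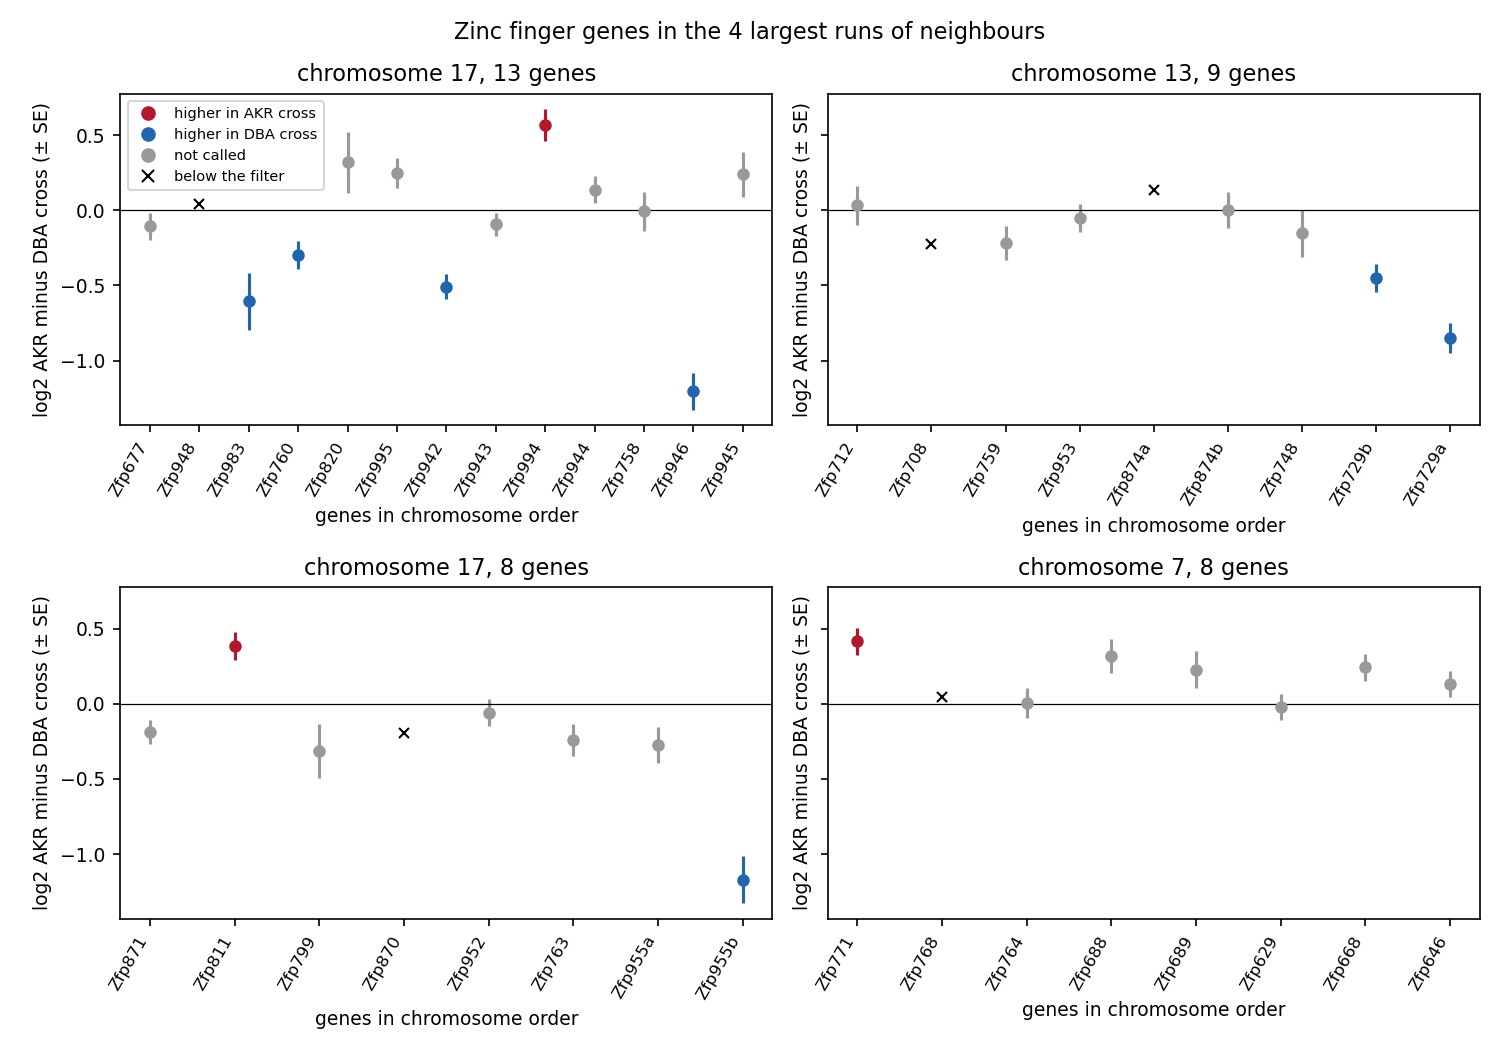
Log2 difference, AKR cross minus DBA cross, with its SE for the zinc finger genes of the 4 largest runs of neighbours in chromosome order, coloured by call, with crosses for genes below the filter. In the run of 13 genes on chromosome 17 Zfp994 (0.57) lies above 0 between Zfp942 (-0.51) and Zfp946 (-1.21), and on chromosome 13 the last 2 genes, Zfp729b and Zfp729a, are the ones called.

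Sequences upstream of neighbouring genes show how alike some of them are. RefSeq start windows (GRCm38.p6, C57BL/6J reference) were found for 124 of the 141 genes, and the 250 bases before the start were used, taking the first listed window of each gene for alignments. Over 7626 pairs of genes the median identity in a global alignment, counted over all 250 bases, was 48.8%, and 8 pairs were above 70%. Windows shifted against each other score lower by this count. Zfp955a and Zfp955b, neighbours on chromosome 17, were identical over all 250 bases. Their readings differed between the crosses by -0.27 ± 0.12 (not called) and -1.17 ± 0.16 (called). Zfp942 and Zfp944 were 89.6% identical (224 of 250 bases). Nearly all of their unmatched bases lay at the window ends, since these windows are shifted against each other. The stretch they share is thus more alike than 89.6%. Their readings differed between the crosses by -0.51 ± 0.08 (called) and 0.14 ± 0.09 (not called). Zfp932 on chromosome 5 and Zfp950 on chromosome 19 were 70.8% identical and were called in opposite directions. The sequences below show these pairs, with that of Zfp955b standing for both Zfp955a and Zfp955b. Then come Zfp946 and Zfp994, genes of the same run with opposite calls, and Zfp626, the gene with the largest called difference. Capitals mark the CCAAT box, the letters CCAAT on either strand, which was the one of the 5 motifs searched that these windows held.
Zfp955b (chr17:33289294-33289543, plus strand): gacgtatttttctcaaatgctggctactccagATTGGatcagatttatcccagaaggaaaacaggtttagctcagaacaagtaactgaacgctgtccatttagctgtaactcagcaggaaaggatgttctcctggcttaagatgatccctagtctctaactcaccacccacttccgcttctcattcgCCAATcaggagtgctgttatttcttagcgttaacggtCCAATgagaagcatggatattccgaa
Zfp942 (chr17:21962465-21962714, minus strand): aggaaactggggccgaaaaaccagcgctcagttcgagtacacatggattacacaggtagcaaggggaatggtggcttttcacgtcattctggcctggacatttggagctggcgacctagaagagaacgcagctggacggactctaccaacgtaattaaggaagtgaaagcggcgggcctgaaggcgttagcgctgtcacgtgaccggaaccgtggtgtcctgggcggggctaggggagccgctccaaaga
Zfp944 (chr17:22361401-22361650, minus strand): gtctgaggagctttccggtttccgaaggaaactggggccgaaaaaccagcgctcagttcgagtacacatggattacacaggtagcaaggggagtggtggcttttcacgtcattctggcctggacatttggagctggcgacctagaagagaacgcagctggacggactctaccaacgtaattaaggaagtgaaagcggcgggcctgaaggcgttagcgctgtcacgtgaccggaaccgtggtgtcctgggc
Zfp932 (chr5:109996260-109996509, plus strand): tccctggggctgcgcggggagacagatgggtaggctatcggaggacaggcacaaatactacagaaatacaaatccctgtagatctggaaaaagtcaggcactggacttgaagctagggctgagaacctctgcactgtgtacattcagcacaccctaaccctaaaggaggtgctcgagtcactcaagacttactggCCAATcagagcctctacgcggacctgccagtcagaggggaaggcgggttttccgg
Zfp950 (chr19:61140841-61141090, minus strand): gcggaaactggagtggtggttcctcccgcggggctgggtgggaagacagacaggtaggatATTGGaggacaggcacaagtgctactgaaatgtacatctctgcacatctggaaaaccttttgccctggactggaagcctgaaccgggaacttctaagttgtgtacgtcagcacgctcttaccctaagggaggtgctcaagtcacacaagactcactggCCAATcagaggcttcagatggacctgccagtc
Zfp946 (chr17:22423952-22424201, plus strand): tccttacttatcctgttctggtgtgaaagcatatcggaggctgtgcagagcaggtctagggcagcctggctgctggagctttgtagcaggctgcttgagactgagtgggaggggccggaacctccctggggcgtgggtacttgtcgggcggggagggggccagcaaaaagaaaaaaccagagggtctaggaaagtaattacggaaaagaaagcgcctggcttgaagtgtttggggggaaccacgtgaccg
Zfp994 (chr17:22225615-22225864, minus strand): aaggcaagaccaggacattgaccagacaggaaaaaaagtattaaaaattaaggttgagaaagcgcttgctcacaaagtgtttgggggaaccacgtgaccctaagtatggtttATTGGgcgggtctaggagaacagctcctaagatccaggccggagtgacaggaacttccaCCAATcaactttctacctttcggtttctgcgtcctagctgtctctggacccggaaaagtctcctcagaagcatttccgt
Zfp626 (chr7:27806946-27807195, plus strand): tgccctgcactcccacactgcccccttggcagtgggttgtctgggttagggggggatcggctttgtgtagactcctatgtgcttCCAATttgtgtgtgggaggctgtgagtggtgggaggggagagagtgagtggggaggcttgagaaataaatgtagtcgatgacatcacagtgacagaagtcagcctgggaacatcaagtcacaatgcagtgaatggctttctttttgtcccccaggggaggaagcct
In these windows the CCAAT box was present in those of Zfp955b (3 matches), Zfp994 (2), Zfp950 (2), Zfp932 (1) and Zfp626 (1), and absent from those of Zfp946, Zfp942 and Zfp944. Genes called in either direction were among those with it, and those without it were called in the DBA direction (Zfp946 and Zfp942) or not called (Zfp944). Sequences of the AKR/J, DBA/2J and FVB/NJ genomes were not used here.

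Across all windows of the family the CCAAT box was found in 79 of 151 (52.3%), and in 33.8% of all 32851 promoter windows of the same length. The ETS letters CCGGAAG were in 11.9% of the family's windows and 6.9% of all, the NRF1 motif in 9.3% and 3.7%, the YY1 letters ATGGCGG in 6.0% and 2.2%, and the TATA letters TATAAA in 4.6% and 12.4%. Each motif was searched on both strands and none of them contains another. The median number of CG dinucleotides was 10 in the family's windows and 6 in all windows, at a GC content of 53.6% and 52.4%. By call, the CCAAT box was in 5 of 6 windows of genes higher in the AKR cross, in 16 of 25 windows of genes higher in the DBA cross (64.0%) and in 42 of 88 windows of genes not called (47.7%). These are descriptions of letters in the reference sequence, and windows of 1 gene or of duplicated genes are not independent.

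Several probe sets of 1 gene did not always give the same call. More than 1 was tested for 44 genes, and calls of single probe sets were adjusted over all tested probe sets. Of the 44 genes, 22 had no probe set called, 5 had all of them called in 1 direction (Zfp729a, Zfp729b, Zfp771, Zfp949 and Zfp955b), 16 had some called, and Zfp644 had calls in both directions. Zfp644, which encodes a partner of the histone methyltransferases G9a and GLP, was not called on its brightest probe set (-0.11 ± 0.09). Another of its probe sets read -0.56 ± 0.13, and a further one, with all 3 DBA arrays below the 40th percentile, read 0.52 ± 0.10. Zfp871 was not called on its brightest probe set (-0.19 ± 0.08), while another read 7.96, 7.42 and 8.14 on the AKR arrays and 9.99, 10.13 and 10.18 on the DBA arrays, a difference of -2.26 ± 0.16. Zfp945 showed the same form, with 0.24 ± 0.15 on its brightest probe set (not called) and -1.35 ± 0.17 on the other. For these genes the reading depended on the probe set, and no size is given for the gene. Zfp606 (-0.61 ± 0.14), Zfp930 (-0.59 ± 0.17), Zfp759 (-0.37 ± 0.11), Zfp846 (-0.36 ± 0.11) and Zfp934 (0.44 ± 0.11) were likewise called on a dimmer probe set and not on the brightest. The reverse held for 8 called genes whose brightest probe set alone was called, with the other probe sets of Zfp982 at -0.31, of Zfp825 at -0.20, of Zfp617 at -0.03, of Zfp651 at 0.13, of Zfp950 at -0.09, of Zfp638 at -0.18 and -0.10, of Zfp983 at -0.26 and 0.16, and that of Zfp942 at 0.47 ± 0.17. The signs of Zfp942, Zfp950 and Zfp983 thus differed between probe sets. Zfp800 was called on 4 of 5 probe sets, with differences from -1.42 to -0.41, and -0.14 on the fifth. The 3 probe sets of Zfp729a ran from -1.48 to -0.85. Of the 109 genes, 15 were represented by a probe set that can match several transcripts, among them Zfp982, Zfp935, Zfp825, Zfp729b, Zfp654, Zfp617, Zfp638 and Zfp771, and for the probe sets shared between genes, signal from related genes cannot be told apart. Sequence variants under the probes were not tested.

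**Figure D5:**
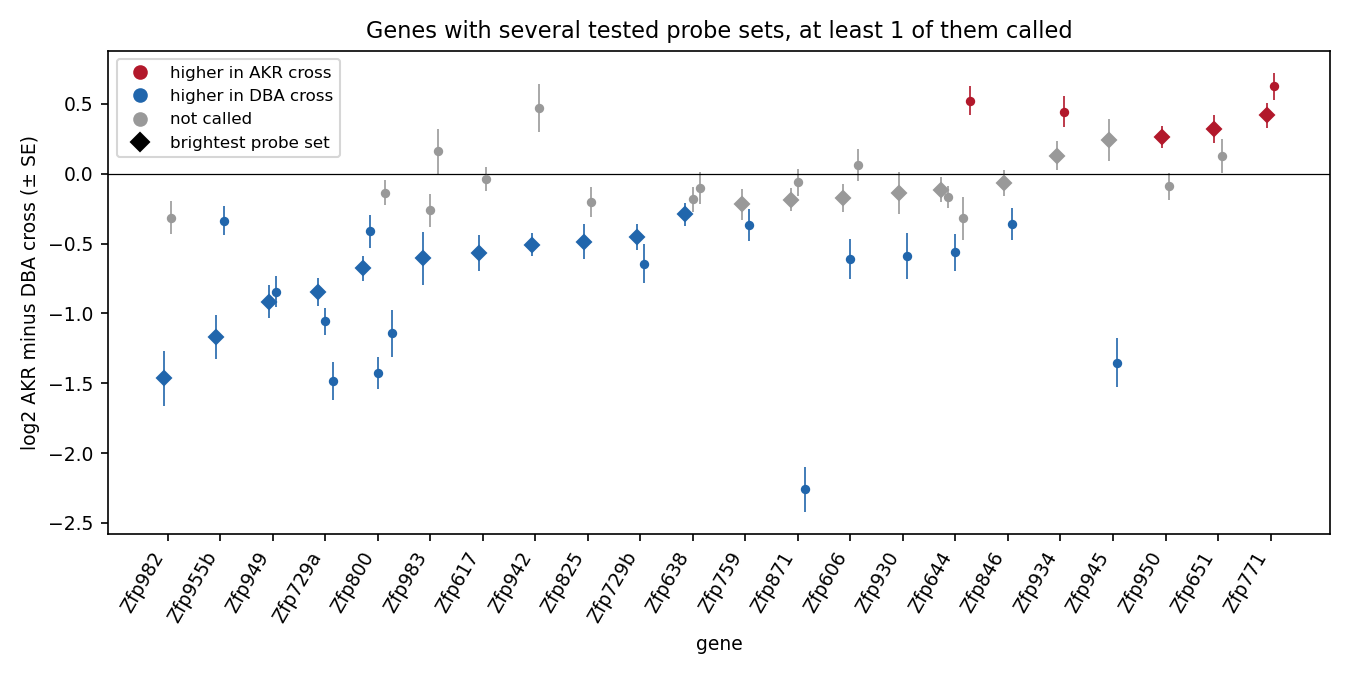
Log2 difference, AKR cross minus DBA cross, with its SE for each tested probe set of the 22 genes that had several tested probe sets and at least 1 called, with diamonds for the brightest probe set. In Zfp729a all 3 probe sets lie below 0, in Zfp644 called probe sets lie on both sides of 0, and in Zfp871 1 probe set lies at -2.26 while the others lie near 0.

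The 32 genes that did not pass the filter included 28 below the 40th percentile on all 6 arrays. Zfp979 was one of the other 4, with 4.97, 6.0 and 5.97 on the AKR arrays, against 3.58, 2.98 and 3.29 on the DBA arrays. It was above the percentile on 2 AKR arrays and on no DBA array, 1 array short of being tested, so it is in no count above. With no filter its difference was 2.36 ± 0.25 (adjusted p = 0.000375, limma) in the AKR direction, a size that is inexact because no DBA array was above the percentile, and it was the one gene of the 32 called in that setting. Its neighbour Zfp982 was called in the DBA direction, and their neighbour Zfp991 was not called (0.18 ± 0.10). The window upstream of Zfp979 was 90.4% identical to that of Zfp980, which lay below the percentile on all 6 arrays and differed by 0.07.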

How the data were processed

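Thymus RNA of 6 samples was hybridised to single-channel Affymetrix arrays after Trizol extraction and biotin labelling, per the labels' protocols. The authors deposited 45101 log2 values per array. Per the submitters' processing notes the tools were MAS5 and RMA, whose roles and versions they do not state. Values ran from 2.47 to 14.4. Such normalized values compress differences of dim probe sets. The number of arrays limits the precision. No detection calls, dates or batches were used here.

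The values were used as deposited, without 64 control probe sets. Of the rest, 27385 lay above the 40th percentile of their array on at least 3 of 6 arrays and were fitted by limma 3.58.1 (R 4.3.3; lmFit, then eBayes with a variance trend). Tests were two-sided and Benjamini-Hochberg adjusted across 12855 genes, each represented by its brightest probe set with 1 symbol in the platform annotation. Where single probe sets of a gene or shared probe sets are called, the adjustment ran across all 27385 tested probe sets instead. The fit was tested on simulated data. Promoters were aligned with Biopython 1.88 and figures drawn with matplotlib 3.10.9 under Python 3.11.15.

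Samples were grouped by their titles. The members and lists were chosen with earlier results of these data known. The text names called members with non-overlapping groups, members whose probe sets disagreed, listed members of known role, and called corepressor genes with Setdb1; others were named after their values were seen. Alternatives were other filters, normalizations, a floor, variance models, a replicate block, other probe set choices and each array left out. Protein sequences were not used here, so the planned description by KRAB box and finger number was not made. Same-numbered arrays of both crosses had deviations from their group means that correlated at 0.389, 0.0697 and 0.371, all positive. The titles do not say what the numbers stand for, and the main fit did not pair the arrays. Any variation shared by same-numbered arrays therefore stays in its SEs and in the spreads within each cross. With the number as a block, 35 members were called, against 27 without it.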

Additional observations from a re-analysis of the deposited data

How the results depend on the processing

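No called zinc finger gene changed direction in any of the 16 alternative settings, and 11 of the 27 kept their call in every setting that tested them, while 16 lost it in some. With 1 array left out, the members called ranged from 15 to 21 (27 with all arrays), those higher in the AKR cross from 2 to 4 (6), those higher in the DBA cross from 12 to 18 (21), the corepressor genes called from 4 to 6 (9) and the Zfp1 to Zfp599 genes called from 16 to 25 (37). Without a variance trend 5 corepressor genes were called. With the replicate number as a block, 35 members were called, 9 of them AKR-higher and 26 DBA-higher, within 1.5 times of the counts without it. Among the uncalled members, Zfp703 (0.01 with all arrays) ranged from -0.0957 to 0.1293 with 1 array left out and was below 0 in 4 of 6 cases, and Zfp809 (-0.11) ranged from -0.3234 to 0.0637 and was above 0 without AKR replicate 3 or DBA replicate 1. Median centring raised the share of all called genes higher in the AKR cross to 62.0%, against 52.0% as deposited, and quantile normalization to 62.1%. With either, 9 members were called AKR-higher and 19 DBA-higher. Without probe sets that can match several transcripts, 18 members were called, and Zfp982 (-0.31), Zfp617 (-0.03), Zfp638 (-0.18) and Zfp825 (-0.20) lost their calls, as did Zfp750, Zfp760 and Zfp651, while Zfp935, Zfp654 and Zfp771 had no probe set left to test. With the mean of all probe sets of a gene, Zfp942 (-0.02), Zfp983, Zfp638, Zfp950 and Zfp651 lost their calls. Zfp760 lost its call in 10 settings, Zfp750 and Zfp651 in 9, and Zfp983 and Zfp950 in 8. Other causes of these changes were not tested.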

Other observations

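Some zinc finger genes of this number range share their probe sets with other genes in the platform annotation and were left out of the counts. Of 19 such probe sets, 9 were tested and 3 were called over all probe sets. The probe set shared by Zfp960 and Zfp97 stood at 5.52, 5.56 and 5.54 on the AKR arrays, against 6.84, 6.75 and 6.87 on the DBA arrays, a difference of -1.28 ± 0.09 (SE, adjusted p = 2.59e-05, limma). The one shared by Rex2, Zfp980 and Zfp600 stood at 4.84, 4.88 and 4.79 on the AKR arrays, against 5.69, 5.72 and 5.81 on the DBA arrays (-0.91 ± 0.09, adjusted p = 0.000207, limma), with none of the 3 AKR arrays reaching the 40th percentile, so it was tested only through the DBA arrays and the size is inexact. In both, every AKR array lay below every DBA array, and which gene gave the signal cannot be told apart. A probe set shared by Gm10193 and Zfp706 was called in the AKR direction (0.26 ± 0.06, adjusted p = 0.0127, limma), and 2 other tested ones of that pair, at -0.13 ± 0.06 and 0.19 ± 0.08, were not called. The probe set shared by Gm13212 and Zfp982 read 0.23 ± 0.09, with every AKR array above every DBA array, and was not called. Its sign is opposite to that of the probe set representing Zfp982 (-1.47). The one shared by Zfp944 and Zfp942 read -0.27 ± 0.11, without overlap, and was not called.

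Among the genes Zfp1 to Zfp599, 3 called genes differed by 2-fold or more, all lower in the AKR cross, namely Zfp458 (-1.21), Zfp207 (-1.12) and Zfp551 (-1.0). Zfp458, with 2 AKR arrays below the 40th percentile, and Zfp551, with 3, were tested only through the DBA arrays, so their sizes are inexact and their shared direction is no support.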
